A study of Mus musculus with 8 samples.

Results

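The EphB receptors and the ephrin-B ligands were followed in dopaminergic neurons of the embryonic mouse midbrain. The family was taken as 8 genes, the receptors Ephb1, Ephb2, Ephb3, Ephb4 and Ephb6 and the ligands Efnb1, Efnb2 and Efnb3. Each gene had 1 probe with its symbol in the deposited annotation, so 8 of 23669 annotated genes, and 8 of 55681 probes on the array, were chosen. The choice was by name, with earlier results of these data known. A further 3 probes carry an accession of Ephb4, Ephb6 or Efnb2 and are given beside them.

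All pools came from embryos of the genotype Pitx3(gfp/+), in which 1 allele of Pitx3, a transcription factor gene of midbrain dopaminergic neurons, drives green fluorescent protein, collected at E14.5. The ventral midbrain was divided into a rostral and a caudal part, dissociated with papain and sorted, and Gfp-positive cells of 5 to 7 embryos were pooled for each sample. There were 4 rostral and 4 caudal pools. Each was hybridised with 1 common reference made of the Gfp-negative cells of those specimens, so it is a mixture of the tissue's other cells. Every cell compared, sorted or not, thus had the same genotype, and no embryo without the Gfp allele is among these samples. The labels do not give the sex of the embryos. The labels do not say whether rostral and caudal pools share embryos or litters. A pool was taken as the replicate, and single embryos cannot be followed.

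EphB receptors are receptor tyrosine kinases, and their ephrin-B ligands are themselves transmembrane proteins, so contact between cells signals forward into the receptor cell and in reverse into the ligand cell. The ligands' cytoplasmic tails are phosphorylated on tyrosine and end in a motif that binds PDZ domains. The family is known for repelling or attracting growing axons, for sorting cells at tissue boundaries and, through Ephb4 and Efnb2, for separating veins from arteries. In the midbrain, Ephb1 has been studied in nigral neurons as a receptor for ephrin-B2.

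The promoters of Ephb1 and Efnb1 are shown because both genes were lower in the sorted pools than in the reference and lower in rostral than in caudal pools, and that of Ephb2 because it showed neither. They are the 120 bases before the start that each gene's promoter entry uses, from RefSeq on GRCm38.p6, read 5′ to 3′ on the gene's strand, which is minus for Ephb1 and Ephb2 and plus for Efnb1. Capitals mark the letters of the CCAAT box, a common promoter element, searched as CCAAT on both strands, where ATTGG is its reverse complement. No entry was matched for Efnb3.
Ephb1, chr9:102354694-102354813: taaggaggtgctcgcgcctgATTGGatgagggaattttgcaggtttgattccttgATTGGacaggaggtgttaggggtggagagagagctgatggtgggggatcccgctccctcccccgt
Efnb1, chrX:99135941-99136060: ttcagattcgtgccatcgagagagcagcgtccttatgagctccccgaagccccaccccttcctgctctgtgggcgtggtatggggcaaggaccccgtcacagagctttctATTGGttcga
Ephb2, chr4:136836013-136836132: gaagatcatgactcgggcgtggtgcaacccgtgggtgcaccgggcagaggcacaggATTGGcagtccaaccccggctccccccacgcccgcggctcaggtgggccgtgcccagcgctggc

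For Ephb2, Ephb3 and Ephb6 that start lies inside the gene span given with the values, so bases before it are not all outside the gene. In the 250 bases before these starts, CCAAT was found in 5 of the 7 members with an entry, Ephb1, Ephb2, Ephb4, Efnb1 and Efnb2, and in 33.8% of all 32851 promoters. In Ephb1 it began 100 and 65 bases before the entry's start, in Ephb2 at 64 and in Efnb1 at 10. The E-box letters CANNTG were found in 5 of the 7, but not in Ephb1 or Efnb1, where 66.2% of all promoters hold them. Letters bound by factors of dopaminergic neurons were in none of the 7 windows: TAATTA (4.84% of all promoters), TAATCC, the site of Otx and Pitx factors (6.25%), AAAGGTCA, the site of Nr4a2 (1.34%), and TGTTTAC, the forkhead site (3.17%). All 4 were searched on both strands. These windows are short, and a missing match says only that the letters are not in them. CpG numbered 10 in the window of Ephb1, 20 in that of Ephb2 and 13 in that of Efnb1, against a median of 6 over all promoters.

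The sorted pools carried the markers of their label. All 11 dopaminergic markers tested were higher in the Gfp-positive pools than in the reference, with a median log2 ratio of 3.58. Pitx3 itself stood at 3.58 ± 0.12 (SD, n = 4) in rostral and 3.59 ± 0.10 (SD, n = 4) in caudal pools, and Th, which encodes the enzyme that makes the dopamine precursor, at 3.39 ± 0.10 and 3.29 ± 0.08 (SD, n = 4 each). Between 62.5% and 70.4% of probes per array were well above background in the sorted channel. The ratios of any 2 arrays correlated with r between 0.78 and 0.87 across probes. In rostral pool 2, the summed intensity of the 10 pericyte and mesenchyme markers was 21683, against 2386 to 3937 in the other 7 pools, so the rostral to caudal difference of each of the 8 genes was also computed without that pool.

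**Figure D1:**
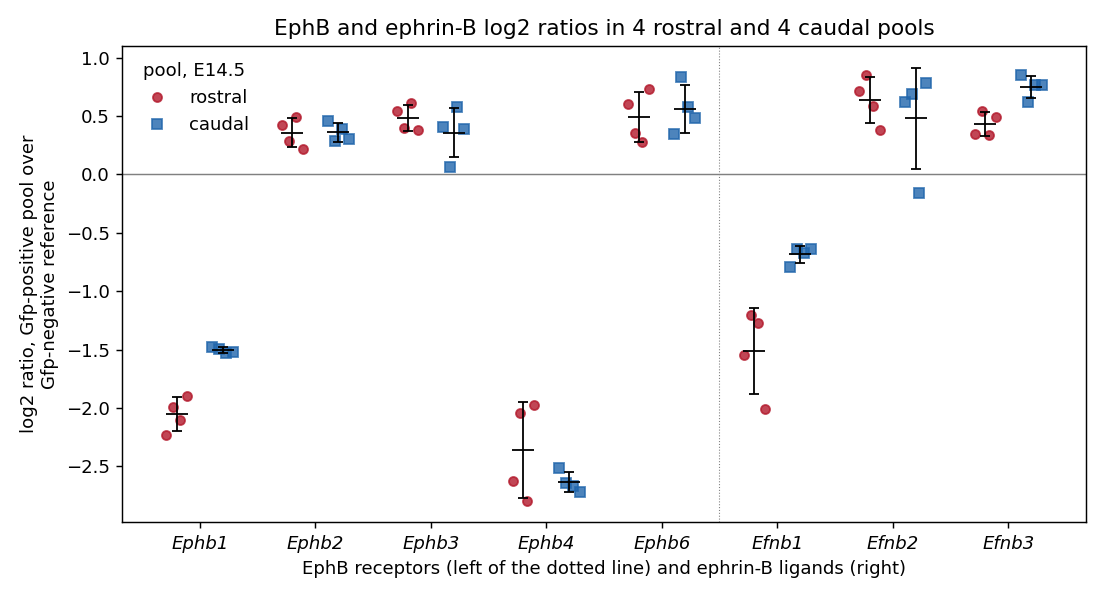
Log2 ratio of each Gfp-positive pool over the Gfp-negative reference (vertical axis) for the 5 EphB receptors and 3 ephrin-B ligands. Circles are the 4 rostral and squares the 4 caudal pools, with the mean and SD beside them; Ephb1, Ephb4 and Efnb1 lie below 0 in all 8 pools, and the pools of the 2 regions separate for Ephb1, Efnb1 and Efnb3.

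Against the Gfp-negative reference, the family split. On the annotated probes, Ephb2, Ephb3, Ephb6, Efnb2 and Efnb3 were higher in the Gfp-positive pools, by 1.28 to 1.51-fold. Ephb1, Ephb4 and Efnb1 were lower, by 2.14 to 5.65-fold. All 8 passed the test (limma, mean of the 8 log2 ratios against 0, adjusted p below 0.05). That count has to be read against a background in which 67.6% of the 38020 probes tested passed, 34.9% higher and 32.7% lower. The median ratio of the 8 genes was 0.39, against 0.03 over all probes. The test leaves out the spread of the reference, which is 1 sample, and the dyes were not swapped, so a dye bias would sit inside these ratios. A lower ratio in these pools cannot tell fewer expressing cells from less RNA per cell.

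Ephb1 (chr9:101922128-102354693, minus strand, GRCm38.p6) binds ephrin-B ligands and is expressed in the developing brain, and its promoter sequence holds the CCAAT letters at 2 places. Its log2 ratio was -2.23, -1.99, -2.11 and -1.89 in rostral pools 1 to 4 and -1.47, -1.50, -1.53 and -1.52 in caudal pools 1 to 4. Every pool was thus below the reference, and every rostral pool was below every caudal one. Over the 8 pools the mean was -1.78 (SE 0.03, limma adjusted p 3.51e-10), a level 3.43-fold lower than in the reference.

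Ephb4 (chr5:137350109-137374522, GRCm38.p6), the receptor of venous endothelium, had the lowest ratio of the family. Its log2 ratio was -2.63, -2.04, -2.79 and -1.97 in the rostral pools and -2.51, -2.65, -2.67 and -2.72 in the caudal pools. The caudal pools lay close together, and rostral pools 2 and 4 stood above the other 6. The mean of -2.50 (SE 0.10, limma adjusted p 3.06e-08) is a 5.65-fold lower level. Another Ephb4 probe rose above background in the sorted channel in 3 of 8 pools, in the reference in 0 of 8, and was not tested.

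Endothelial markers moved the same way as Ephb4: 9 of 10 tested were lower in the Gfp-positive pools, with a median of -1.72. Their summed intensity was 14586 to 22061 in rostral pools, 17168 to 18203 in caudal pools and 58089 to 63973 in the reference channel. No endothelial marker on the array was below background in every pool. The defining marker Cdh5, the cadherin of endothelial junctions, stood at -2.35 (limma adjusted p 3.15e-08). Most other cell types' markers were lower too: 8 of 9 pericyte and mesenchyme markers (median -3.07) and 9 of 9 of radial glia and progenitors (-2.95). So were 4 of 4 of oligodendrocyte precursors (-3.70), 6 of 6 erythroid ones (-4.20) and 7 of 7 of rostral and hypothalamic neighbours (-2.70). Of 6 GABAergic markers 4 were lower and 1 higher (-3.18), and of 5 glutamatergic ones 4 and 1 (-3.22). Microglia markers did not follow: 1 of 5 was lower and 0 higher, with a median of 0.10. The part of these cells' RNA in the ratios of Ephb4, Ephb1 and Efnb1 was not tested.

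Ephb2 (chr4:136647536-136836326, GRCm38.p6), Ephb3 (chr16:21204620-21223309, GRCm38.p6) and Ephb6 (chr6:41603834-41620509, GRCm38.p6) all lay above the reference in 8 of 8 pools. Ephb2 and Ephb3 are catalytically active receptors with overlapping roles in guiding commissural axons, while Ephb6 lacks kinase activity. Ephb2 ranged from 0.22 to 0.50, with a mean of 0.36 (SE 0.06, limma adjusted p 0.000409). Ephb3 ranged from 0.07 to 0.62, with a mean of 0.42 (SE 0.05, limma adjusted p 6.46e-05).

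The size of these small ratios differed between normalizations. With median centring in place of loess, Ephb3 was 0.10 (limma adjusted p 0.0723) and Ephb2 0.65, and with the scanner software's own processed signals Ephb3 was 0.82. The call for Ephb3 was thus lost in 1 of 17 alternatives, while the direction held in all 17.

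Ephb6 was dim on its annotated probe, which was well above background in all 8 pools but on 4 of 8 arrays in the reference. It ranged from 0.28 to 0.83, with a mean of 0.53 (SE 0.08, limma adjusted p 0.000205). The further Ephb6 probe was above background on all arrays in both channels and gave 0.24 (SE 0.05, limma adjusted p 0.00167). The processed signals gave 1.11 for the annotated probe, so the direction held while the size did not.

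Efnb1 (chrX:99136061-99149022, GRCm38.p6), an X-linked ligand required for normal skull and midline development, was the only ligand below the reference. Its promoter sequence holds the CCAAT letters at 1 place, 10 bases before the entry's start. Its log2 ratio was -1.55, -1.21, -1.27 and -2.01 in the rostral pools and -0.80, -0.64, -0.67 and -0.63 in the caudal pools. All 8 pools were below 0, the caudal ones lay close together and rostral pool 4 was the lowest. The mean was -1.10 (SE 0.08, limma adjusted p 2.22e-06), a 2.14-fold lower level.

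Efnb2 (chr8:8617235-8661242, GRCm38.p6), the ligand of arterial endothelium, was above the reference in 7 of 8 pools. Its log2 ratio was 0.71, 0.85, 0.59 and 0.39 in the rostral pools and 0.62, 0.69, -0.16 and 0.78 in the caudal pools. Caudal pool 3 was the exception and widened the caudal spread to 0.48 ± 0.43 (SD, n = 4). The mean was 0.56 (SE 0.10, limma adjusted p 0.00111) and reached 0.92 with median centring. The further Efnb2 probe exceeded background in 2 of 8 pools and stayed untested.

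Efnb3 (chr11:69554092-69561150, GRCm38.p6), the midline ligand that stops corticospinal axons from recrossing, was above the reference in every pool. Its log2 ratio was 0.35, 0.54, 0.34 and 0.49 in the rostral pools and 0.85, 0.62, 0.76 and 0.77 in the caudal pools. The mean was 0.59 (SE 0.03, limma adjusted p 4.04e-07), 1.51-fold higher, and the lowest caudal pool lay above the highest rostral pool.

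The second comparison asked whether the family differs between Gfp-positive cells of the rostral and of the caudal part. Ephb1, Efnb1 and Efnb3 were lower in the rostral pools, by 1.46, 1.77 and 1.25-fold, and no member was higher in them. These 3 of 8 passed the test, where 3.34% of the 36974 probes tested did, 1.82% higher in rostral pools and 1.52% lower. The same 3 were the members whose rostral and caudal pools did not overlap, which held for 9.71% of 36852 probes and, with caudal above rostral, for 4.84%. The median absolute difference was 0.21 over the 8 members and 0.12 over all probes. The signed medians were -0.03 and -0.00.

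**Figure D2:**
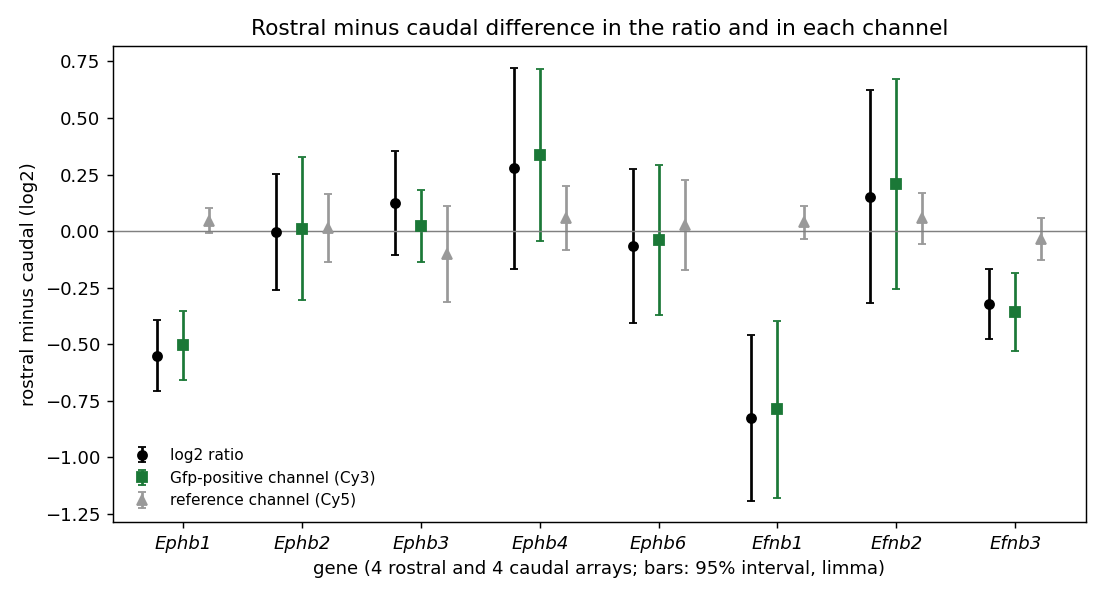
Rostral minus caudal difference (log2, vertical axis) of each gene for the ratio, the Gfp-positive channel and the reference channel, with 95% intervals from limma over 4 rostral and 4 caudal arrays. The intervals of the ratio and of the Gfp-positive channel lie below 0 for Ephb1, Efnb1 and Efnb3, and all 8 reference channel intervals include 0.

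Ephb1 had the smallest p of the 3. Its mean ratio was -2.06 ± 0.15 (SD, n = 4) in rostral and -1.50 ± 0.02 (SD, n = 4) in caudal pools. The difference was -0.55 (SE 0.07, 95% interval -0.71 to -0.39, limma adjusted p 0.0053). Without any single pool it stayed between -0.60 and -0.49, with adjusted p between 0.00621 and 0.0221, and without rostral pool 2 it was -0.57 (limma adjusted p 0.0132).

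Efnb1 had the largest difference and, of the 3 genes called, the largest rostral spread. Its mean was -1.51 ± 0.37 (SD, n = 4) in rostral and -0.68 ± 0.08 (SD, n = 4) in caudal pools. The difference was -0.83 (SE 0.16, 95% interval -1.19 to -0.46, limma adjusted p 0.0283). The call was lost without rostral pool 1 (adjusted p 0.0637) and without caudal pool 1, 2, 3 or 4 (0.0644, 0.0739, 0.0717 and 0.081). Without rostral pool 2 the difference was -0.93 (limma adjusted p 0.0286).

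Efnb3 had the smallest of the 3 differences. Its mean was 0.43 ± 0.10 (SD, n = 4) in rostral and 0.75 ± 0.09 (SD, n = 4) in caudal pools. The difference was -0.32 (SE 0.07, 95% interval -0.48 to -0.17, limma adjusted p 0.0377). The call was lost without rostral pool 1, 3 or 4 (adjusted p 0.0886, 0.0918 and 0.0678), without caudal pool 1, 3 or 4 (0.106, 0.0918 and 0.102) and with median centring (0.126). Without rostral pool 2 the difference was -0.36 (limma adjusted p 0.0412).

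The arrays lay in 2 rows of 1 slide, each with 2 rostral and 2 caudal pools, so each difference could be taken within a row. Ephb1 differed by -0.63 in the first row and -0.48 in the second. Efnb1 differed by -0.66 and -0.99, and Efnb3 by -0.29 and -0.35. All 3 kept their direction in both rows. With the row as a block over all 8 arrays, Efnb3 missed the threshold (limma adjusted p 0.0626), while Ephb1 (0.0101) and Efnb1 (0.0451) passed it. With 2 pools on each side, limma called 0 of 36974 probes in either row, and 4130 and 3991 had an unadjusted p below 0.05.

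The other 5 members did not pass the test, and their intervals show how large a difference remains possible. The difference of Ephb2 was -0.00 (95% interval -0.26 to 0.25), that of Ephb3 0.12 (-0.11 to 0.35) and that of Ephb6 -0.07 (-0.41 to 0.27). The further Ephb6 probe gave 0.04 (-0.17 to 0.26). Ephb4 and Efnb2 were less precise, at 0.28 (-0.17 to 0.72) and 0.15 (-0.32 to 0.62). The limma adjusted p of these 5 genes lay between 0.610 and 0.996, and none was called in any of 22 alternatives.

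Because every array shares the reference, a difference in ratio can be traced to 1 channel. In the Gfp-positive channel, the log2 intensity of Ephb1 was 14.83, 15.06, 14.95 and 15.10 in rostral pools and 15.56, 15.46, 15.46 and 15.47 in caudal pools. That of Efnb1 was 12.07, 12.35, 12.37 and 11.54, against 12.78, 12.94, 12.88 and 12.87. That of Efnb3 was 15.64, 15.74, 15.46 and 15.57, against 16.08, 15.82, 15.99 and 15.95. In all 3 genes the rostral and caudal pools remained apart in this channel.

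**Figure D3:**
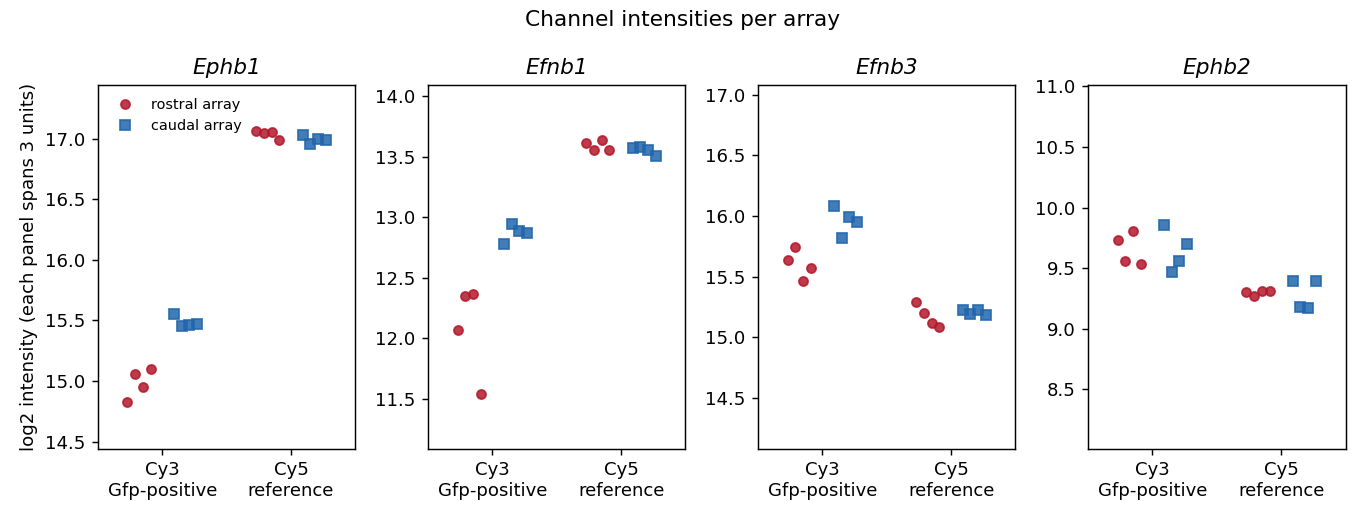
Log2 intensity (vertical axis, each panel spanning 3 units) of the Gfp-positive channel (Cy3) and the reference channel (Cy5) on each array, for Ephb1, Efnb1, Efnb3 and, for contrast, Ephb2. Circles are rostral and squares caudal arrays; rostral arrays lie below caudal ones in the Gfp-positive channel of the first 3 genes, while the reference channel of all 4 overlaps.

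Tested in the Gfp-positive channel alone, the differences were -0.50 for Ephb1 (limma adjusted p 0.00663), -0.79 for Efnb1 (0.0456) and -0.36 for Efnb3 (0.0402). These were the only members called, where 3.2% of probes were, 1.81% higher in rostral pools and 1.39% lower. The ratio is built from this same channel, so this test is not independent of the one on the ratio. With the processed signals, Efnb1 missed the threshold in this channel (adjusted p 0.0517). In the reference channel, Ephb1 stayed between 16.95 and 17.06, Efnb1 between 13.51 and 13.64 and Efnb3 between 15.08 and 15.29. There, limma called 0 of 8 members and 0.0124% of 32312 probes, and 0 members with the processed signals. The smallest unadjusted p among the members in that channel was 0.101, for Ephb1.

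Of the A-class genes that bind across classes, Epha4 is a receptor of both ephrin-A and ephrin-B ligands, and Efna5 is an anchored ligand that can bind Ephb2. Epha4 was lower than the reference, at -1.0 (limma adjusted p 5.62e-06), and ran opposite to Ephb1 between the regions. Its mean ratio was -0.46 ± 0.26 (SD, n = 4) in rostral and -1.55 ± 0.24 (SD, n = 4) in caudal pools, a difference of 1.09 (limma adjusted p 0.0115). Efna5 was also lower than the reference, at -0.72 (limma adjusted p 1.87e-06). Its rostral minus caudal difference of -0.36 did not pass the test (limma adjusted p 0.111).

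The list of EphB and ephrin-B signalling partners held 53 genes, of which 50 were tested. Against the reference 21 were higher and 16 lower, or 74% against the background of 67.6%, and their median ratio of 0.05 lay near the 0.03 of all probes. The adaptors and kinases gave 6 higher and 4 lower of 15. Of 9 PDZ partners 3 were higher and 3 lower, of 5 co-receptors and substrates 2 and 3, of 3 cleavage enzymes 1 and 1, and of 4 phosphatases 2 and 1.

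The partners with the smallest p among those higher were Sdc2, a syndecan acting with EphB2 in dendritic spines, at 1.50, and Arhgef15, an exchange factor that EphB2 regulates at synapses, at 0.71. Ptpro, a phosphatase that acts on Eph receptors, stood at 0.68, and Grip1, a PDZ scaffold of ephrin-B, at 0.87. Those lower were Mmp9, a matrix protease, at -2.71, and the adaptor Shc1 at -1.34. The PDZ phosphatase Ptpn13 stood at -1.19 and the GTPase Rhoa at -0.76. The 8 had limma adjusted p of 2.80e-06 or less. A second Rhoa probe gave 0.00 (limma adjusted p 0.992), so that gene's direction rests on which probe is read.

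Between the regions, 2 of the 50 partners were called, or 4%, near the background of 3.34%. Grb7, an adaptor that binds phosphorylated EphB1, had a ratio of 0.79 ± 0.19 (SD, n = 4) in rostral and -1.47 ± 0.53 (SD, n = 4) in caudal pools. The difference was 2.26 (limma adjusted p 0.0032), with a signal well above background in 6 of 8 pools, and it was 3.62 with the processed signals. Nck2, an adaptor that binds phosphorylated EphB1 and ephrin-B1, was lower in rostral pools, at -0.43 ± 0.09 against -0.06 ± 0.13 (SD, n = 4 each), a difference of -0.37 (limma adjusted p 0.0387). The PDZ partners, co-receptors, cleavage enzymes and phosphatases had none called.

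**Figure D4:**
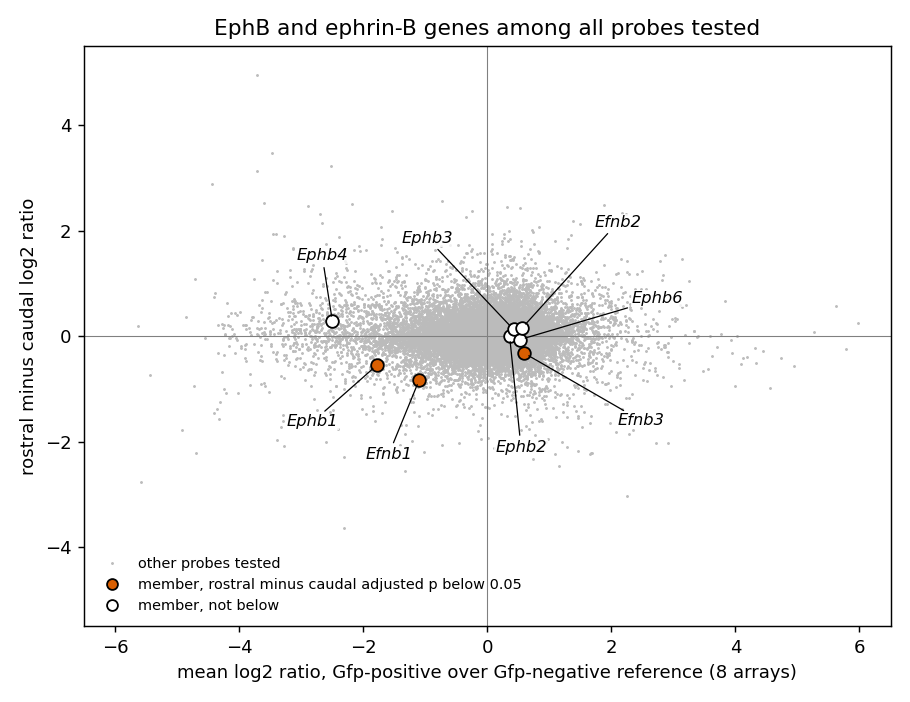
Rostral minus caudal log2 ratio (vertical axis) against the mean log2 ratio to the Gfp-negative reference over 8 arrays (horizontal axis) for every probe tested in both comparisons. Filled circles are Ephb1, Efnb1 and Efnb3, at or below -0.32 on the vertical axis, and open circles the other 5 members; all lie within the cloud of other probes.

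Markers of other cells were read beside the 3 differences. The 7 markers of rostral and hypothalamic neighbours gave 5 higher in rostral pools (Nkx2-1, Dlx1, Dlx2, Pmch and Fezf1), with a median of 2.31, and summed to 4117 to 8922 there against 1454 to 1885 in caudal pools. In the reference they summed to 23058 to 25452. Of the 11 dopaminergic markers, 2 were called lower in rostral pools and 0 higher, and the median difference was -0.00. The 2 were Slc18a2, the vesicular monoamine transporter, at -0.56, and En1, a midbrain transcription factor, at -0.78 (limma adjusted p 0.0123 and 0.0195). That list summed to 1483731 to 1597228 in rostral and 1642610 to 1795080 in caudal pools, without overlap.

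Fewer markers moved in the remaining lists. Of 9 radial glia and progenitor markers, Vim was lower in rostral pools (-0.63, limma adjusted p 0.0213), and the sums were 53585 to 66614 and 65050 to 75169. Of 6 GABAergic markers, Tal2 was called, at -1.79 (limma adjusted p 0.00149), while the list's sum was 149901 to 246138 in rostral and 106090 to 164781 in caudal pools. Of 5 glutamatergic markers, Pou4f2 was called, at -2.78 (limma adjusted p 0.00149). The endothelial, pericyte and mesenchyme, oligodendrocyte precursor, erythroid and microglia lists had none called. Microglia sums varied widely within both regions, from 36252 to 127411 in rostral and 33595 to 116897 in caudal pools. The part of these cells in the differences of Ephb1, Efnb1 and Efnb3 was not tested. All 3 differences were at least as large without rostral pool 2, which was left out for its pericyte and mesenchyme sum alone.

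Since Efnb1 is X-linked and the embryos' sex is not given, the sex-linked transcripts were read as well. The rostral minus caudal difference was -0.21 for Xist, the RNA of the inactive X (limma adjusted p 0.897), 0.03 for Ddx3y (0.991) and 0.28 for Eif2s3y (0.911). Kdm5d and Uty exceeded background in 2 of 8 pools and stayed untested. The spread among pools was wide, with an SD of 0.93 for Xist among rostral pools.

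The pattern of Efnb1, the member with the largest regional difference, was closest to those of Smarcal1, Cda, Ost4, Ubqln4 and Prmt1. Over the 8 pools their log2 ratios correlated with that of Efnb1 at r between 0.97 and 0.99, a ranking among all named probes that share its arrays and reference. None of the 5 was called between the regions, and their differences ranged from -0.71 for Cda to -0.15 for Ost4. Other probes of Smarcal1, Ost4 and Prmt1 followed Efnb1 less closely, at r of 0.79 and 0.75, 0.36 and 0.53.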

How the data were processed

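Per the file headers, Agilent Feature Extraction 10.7.3.1 wrote the deposited scanner files, with each channel's median spot intensities and local backgrounds, not normalized. The processed intensities beside them had background subtracted and dyes normalized by that software, per the file headers. Other columns deposited by the authors hold 0 or 1 flags (well above background, saturated, outlier). The submitters' processing notes also list RMA without a role. The annotated table gave probe names only, and its 8 value columns, whose names match no sample, were not used.

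Cy3 held the sorted sample on every array. Of 62976 spots per array, 59305 were not controls, giving 55681 probes. The number of arrays, 4 per region, limits the precision. No member spot was saturated. In R 4.3.3 with limma 3.58.1 and data.table (version 1.17.8), background was corrected by normexp (offset 50) and arrays normalized by loess, with control and outlier spots (210 to 298 per array) at weight 0. Log2 ratios of Cy3 over Cy5 were fitted over all 8 arrays by lmFit and eBayes with trend, two-sided, and Benjamini-Hochberg adjusted over all probes at 0.05. Probes entered if well above background on at least 4 of 8 arrays, in either channel for the reference comparison and in the sorted channel for rostral against caudal. Channels were taken after loess and Aquantile, and single genes are compared within a probe only. Marker sums add intensities over the probes of a list, so its brightest probes weigh most. The scripts were tested on simulated data.

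Genes were named by accession through RefSeq (GRCm38.p6; 27509 probes) or only by the deposited annotation (4124), and 24048 probes stayed unnamed. The build behind the array design is not given in the sources used here. The members and lists (partners, markers) were chosen with earlier results of these data known, and the motifs and the sex-linked genes after these values were seen. Mllt4, an older symbol of Afdn, was counted once. The counts of 1 group of partners are not reported here. Named beyond the members are Epha4, Efna5, up to 4 called partners per direction and comparison with the smallest p, and the 5 genes most like the member with the largest regional difference; marker genes and probes of the same gene are named as checks. Each member was led by its probe in the deposited annotation, which for Ephb6 is the dimmer one. A-class, partner and marker genes were led by their brightest named probe. The 5 genes most like Efnb1 were led by the probe with the highest r. Alternatives were the processed signals, another normexp offset (16), median centring, other filters and gene summaries, no trend, each pool left out, and blocks or splits by replicate number and slide row.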

Additional observations from a re-analysis of the deposited data

Results flagged for a closer look

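The rostral and caudal effects relative to the reference differed by a test of the difference itself for 3 of the 8 genes. The same test called 3.34% of the 36974 probes tested, 1.52% as lower in rostral pools. Rostral minus caudal, the log2 ratio to the Gfp-negative reference differed by -0.55 for Ephb1 (limma adjusted p 0.0053), -0.83 for Efnb1 (0.0283) and -0.32 for Efnb3 (0.0377). In each case all 4 rostral pools lay below all 4 caudal pools, which held for 4.84% of 36852 probes. The call of Ephb1 was kept in 20 of 22 alternatives, that of Efnb1 in 13 and that of Efnb3 in 9.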

How the results depend on the processing

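Against the reference, all 8 genes kept their direction in all 17 alternatives, and the only call lost was that of Ephb3 with median centring. Probes called numbered 25707 in the main analysis, and 13339 and 13160 with 1 probe per gene or the mean over a gene's probes, where fewer features were tested. The share of called probes that were higher was 51.6%, 58.3% with the processed signals and 63.1% with median centring, and the median of all probes moved from 0.03 to 0.11 and 0.13. Between the regions, Ephb1, Efnb1 and Efnb3 kept their direction in all 22 alternatives and were called in 20, 13 and 9 of them. Without a trend, 1 member was called (Efnb1 0.0507, Efnb3 0.117), and Efnb3 was lost without a filter (0.0524) and with the slide row as a block (0.0626); the cause was not tested. Leaving out each pool gave 1 to 3 members and 646 to 1070 probes, against 1236. Within either slide row, 0 members and 0 probes were called, with fewer samples. With the replicate number as a block, 609 probes and 1 member, Ephb1, were called (Efnb1 0.0622, Efnb3 0.133). The labels do not say what the number marks. Deviations of same-numbered pools correlated between -0.02 and 0.03, and 0 of 4 numbers correlated best with itself. Correlations near 0 cannot show whether same-numbered pools share embryos or a sort, so the pairing was not settled. Signal near background limits Ephb6 in the reference and the further probes of Ephb4 and Efnb2.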
